A study of Mus musculus with 4 samples.

Results

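The Krüppel-like factors are transcription factors that bind GC-rich and CACCC-containing DNA through conserved zinc fingers at their carboxyl end. Some activate transcription through acetyltransferases, some repress it through the CtBP corepressors and some repress it through the Sin3 corepressors. Several are early response genes, and in neurons members of the family regulate axon growth, maturation and the response to hormones. The 10 genes described here, Klf2, Klf3, Klf4, Klf5, Klf6, Klf7, Klf9, Klf10, Klf12 and Klf13, were taken by symbol from the deposited transcript table, among 17 Klf symbols in it and 18010 genes measured in all. Each had 1 transcript row, and the rows rested on 71 probesets, sets of probes that are reported as a single value. None of these probesets was listed for another gene.

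The samples were dentate gyri of 8-week-old male wild-type C57/Black6 mice, dissected out of the whole hippocampus. There were 2 arrays from mice 4 h after electroconvulsive stimulation (ECS), a seizure-inducing current of 18 mA given for 1.0 s at 100 Hz in pulses of 0.3 ms, and 2 arrays from sham mice at the same time. Arrays of a group are labelled as biological replicates, but whether RNA of several animals was pooled on an array is not stated. The p-values thus rest on the spread between arrays, which the test draws, for each gene, toward the spread typical of all genes. The study asked which genes differ after ECS. Values are log2 expression levels, and a difference is the ECS mean minus the sham mean on that scale.

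Klf10 rose after ECS and was the only gene of the 10 to pass the test (limma, Benjamini-Hochberg adjusted p under 0.05 over all 18010 genes, 2 arrays a group). Among all genes 0.5% were called higher and 0.194% lower by this rule. Klf9 had the next largest difference and Klf12 the largest negative one. In both of these every ECS array lay beyond every sham array, but neither passed the threshold. The remaining 7 genes had differences under 0.2 in size, as had 12243 of all 18010 genes. The median difference of the 10 genes was -0.04, equal at this precision to that of all genes (-0.04).

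**Figure D1:**
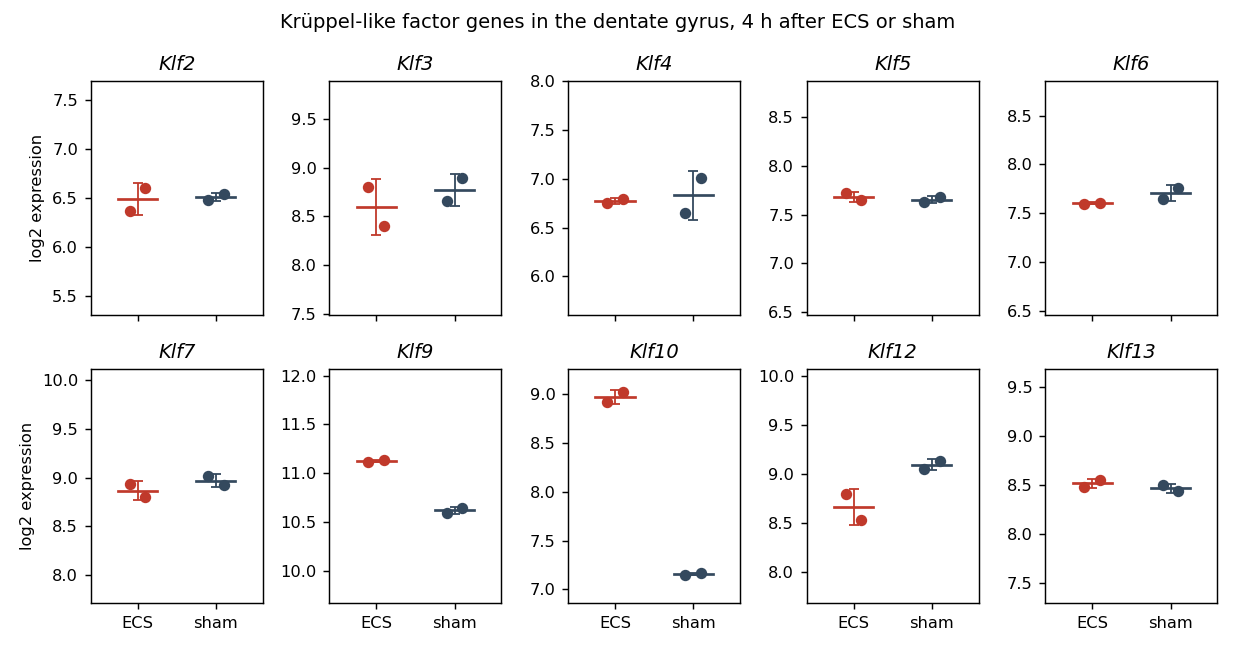
Log2 expression of each Klf gene on the ECS arrays (red, left) and the sham arrays (dark, right). Points are single arrays, lines are means and bars are SD (n = 2); the vertical span is the same in all panels, so that only Klf10, Klf9 and Klf12 show a gap between the groups that is easily seen.

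Reference promoter sequences were available for 8 of the 10 genes, from RefSeq (GRCm38.p6); Klf5 and Klf10 had no entry. The windows of Klf9 and Klf12 are shown because these are the genes next to Klf10 in the size of their difference. Each spans the annotated start over 300 bases, at chr19:23140976-23141275 on the plus strand for Klf9 and chr14:100149747-100150046 on the minus strand for Klf12. Capitals mark matches on either strand to the GC box GGGCGG, the CACCC box, TGACG (the core of the cAMP response element), the full element TGACGTCA and the AP-1-like pattern TGANTCA. The search took any base at N, so a match to this pattern need not be an AP-1 site.
Klf9: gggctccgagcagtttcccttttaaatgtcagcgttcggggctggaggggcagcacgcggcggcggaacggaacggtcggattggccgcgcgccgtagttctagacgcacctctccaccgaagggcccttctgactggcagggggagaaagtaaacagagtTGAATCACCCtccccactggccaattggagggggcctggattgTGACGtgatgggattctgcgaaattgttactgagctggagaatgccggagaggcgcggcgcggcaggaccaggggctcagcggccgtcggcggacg
Klf12: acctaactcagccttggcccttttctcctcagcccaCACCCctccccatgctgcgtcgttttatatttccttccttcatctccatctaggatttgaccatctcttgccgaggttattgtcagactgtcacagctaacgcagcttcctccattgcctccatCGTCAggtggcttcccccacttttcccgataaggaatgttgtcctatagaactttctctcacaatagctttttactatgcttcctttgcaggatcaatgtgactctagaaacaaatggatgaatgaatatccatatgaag
The Klf9 window held a TGANTCA match, which reads TGAATCA, and a CACCC match that overlap, and 1 TGACG match. The Klf12 window held 1 CACCC match and 1 TGACG match, the second of these on the opposite strand (read as CGTCA). Neither held GGGCGG, which was present in the other 6 windows and in 35.7% of all 32851 promoter windows in the table. Of the 8 windows, 6 held CACCC and 6 held TGACG, against 57.5% and 20.8% of all windows. The pattern TGANTCA was found in the Klf9 window alone of the 8, and in 7.81% of all windows. The full cAMP response element was in none of the 8, and in 1.79% of all windows. These matches describe the letters in the windows; binding was not measured. The 8 windows had a median GC content of 66.3%, against 52.7% for all windows. The Klf12 window had the lowest of the 8, at 45.7%, and the Klf9 window had 63.3%. Whether the annotated start of Klf12 is the one used in this tissue was not tested, so its window may not be the active promoter.

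Klf10, also known as TGF-beta-inducible early gene, encodes a Sin3-recruiting repressor. It read 8.92 on ECS A and 9.02 on ECS B, against 7.15 on sham A and 7.16 on sham B. Both ECS arrays stood far above both sham arrays: the smallest gap between an ECS and a sham array was 1.75, while the arrays of a group lay 0.10 (ECS) and 0.02 (sham) apart. The means were 8.97 ± 0.07 in ECS and 7.16 ± 0.01 in sham (SD, n = 2 each), a 3.51-fold rise with a log2 difference of 1.81 ± 0.09 (SE; limma adjusted p = 0.0125). The difference of Klf10 was above that of 99.96% of all genes. Leaving out any array kept the difference between 1.76 and 1.86, but the adjusted p then lay between 0.0539 and 0.0619, above the threshold. In whole dissected tissue, more cells of a type that expresses a gene and more RNA per cell cannot be told apart.

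All 4 Klf10 probesets were higher on both ECS arrays. Among genes with 4 or more probesets, 0.913% had every probeset apart in this direction. Many of these genes have more probesets than Klf10, which makes full agreement harder to reach. Probeset 5520942 differed most, with 10.2 and 10.0 on the ECS arrays against 7.69 and 8.06 on the sham arrays. Probeset 5465735 differed least, with 7.37 and 7.75 on the ECS arrays against 6.50 and 5.84 on the sham arrays. The differences of the 4 probesets were 1.398 to 2.24. Tested against the other probesets of the gene, these extremes had an adjusted p of 1.00 each (limma diffSplice over 230453 probesets, a test added after the data were seen).

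**Figure D2:**
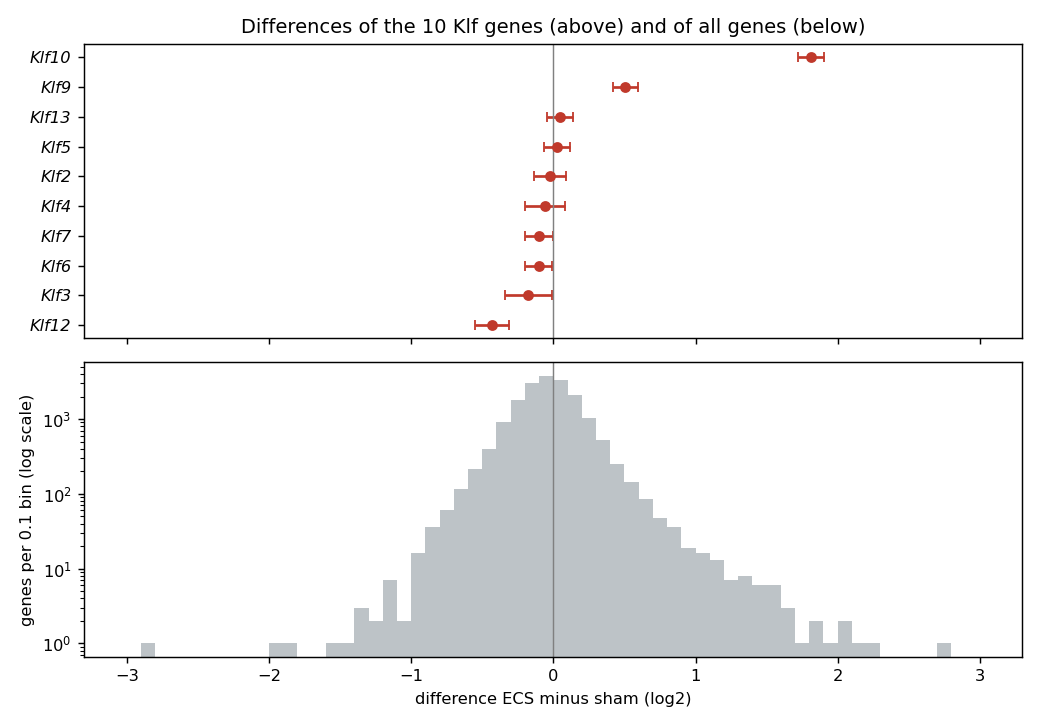
Above, the log2 difference ECS minus sham of each Klf gene with its moderated SE (bars); below, the number of genes per bin of 0.1 among all 18010 genes, on a log scale. Klf10 at 1.81 lies in the far right tail, Klf9 at 0.51 and Klf12 at -0.43 lie on the shoulders, and the other 7 genes lie near the centre.

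The 5 genes nearest to Klf10 in their pattern over the 4 arrays, each gene centred on its own mean, were Homer1, Dusp14, Tll1, Cenpa and Samd4. Their Euclidean distances to Klf10 were between 0.10 and 0.20. As arrays of a group lay close together, this distance mainly follows the size of the difference. That was 1.64 to 1.90 in these 5 genes and 1.81 in Klf10. Homer1, a synaptic scaffold gene, was the nearest at 0.10, with a difference of 1.72. Cenpa, the centromeric histone gene, had a difference of 1.90 and a distance of 0.15. Dusp14 rests on 1 probeset.

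Klf9 encodes a Sin3-recruiting factor that thyroid hormone and glucocorticoids induce, and that is known for a part in the late maturation of granule neurons. It read 11.12 on ECS A and 11.13 on ECS B, against 10.59 on sham A and 10.64 on sham B. The groups did not overlap, and the 2 ECS arrays differed by only 0.01. The means were 11.13 ± 0.01 in ECS and 10.62 ± 0.03 in sham (SD, n = 2 each). The log2 difference was 0.51 ± 0.09 (SE), a 1.42-fold difference, with a limma adjusted p of 0.0946. At an adjusted p under 0.10, where 1.22% of all genes were called higher and 0.999% lower, Klf9 and Klf10 were both called. The call at 0.05 depended on the fit: with the dimmest 25% of genes left out the adjusted p was 0.0408, and with trend and robust eBayes 0.00546. With an array left out, the adjusted p was 0.237 to 0.306, which misses 0.10 as well. By the filter on dim genes 1.79% of genes were called higher and 1.6% lower, and by trend and robust eBayes 2.03% and 1.95%.

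All 7 Klf9 probesets were higher on both ECS arrays, with differences of 0.34 to 0.78. Among genes with 7 or more probesets, 0.672% had all of them apart and higher. Many of these genes have more probesets than Klf9, so the share is not that of genes with exactly 7. The largest difference was that of probeset 5306288, with 9.19 and 9.01 on the ECS arrays against 8.09 and 8.56 on the sham arrays. The brightest, probeset 4677722, read 12.54 and 12.54 on the ECS arrays against 12.24 and 12.15 on the sham arrays. The 7 probesets thus shared a direction over a wide range of brightness.

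Klf13 encodes a close relative of Klf9 that also recruits Sin3. It read 8.48 and 8.55 on the ECS arrays, against 8.50 and 8.44 on the sham arrays. The groups overlapped, and the difference of 0.05 ± 0.09 (SE; limma adjusted p = 0.827) was no larger than the gaps within the groups. Its probesets were not uniform. Probeset 5411692 read 8.35 and 8.28 on the ECS arrays, against 7.61 and 7.64 on the sham arrays, a difference of 0.69. The other 5 probesets had differences of -0.25 to 0.13. Against those 5 this probeset stood 0.77 higher in its difference, with a limma diffSplice adjusted p of 0.120.

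The deposited mapping lists most probesets of a transcript in ascending order of number and puts some after that run; probeset 5411692 is one of these. Such probesets occurred in 24.5% of all genes, and in Klf2, Klf6 and Klf13 among the 10. The sources used here do not say what sets them apart. Without it the difference of Klf13 turned to -0.079 (adjusted p = 0.698), so the sign of the Klf13 value rests on this probeset.

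**Figure D3:**
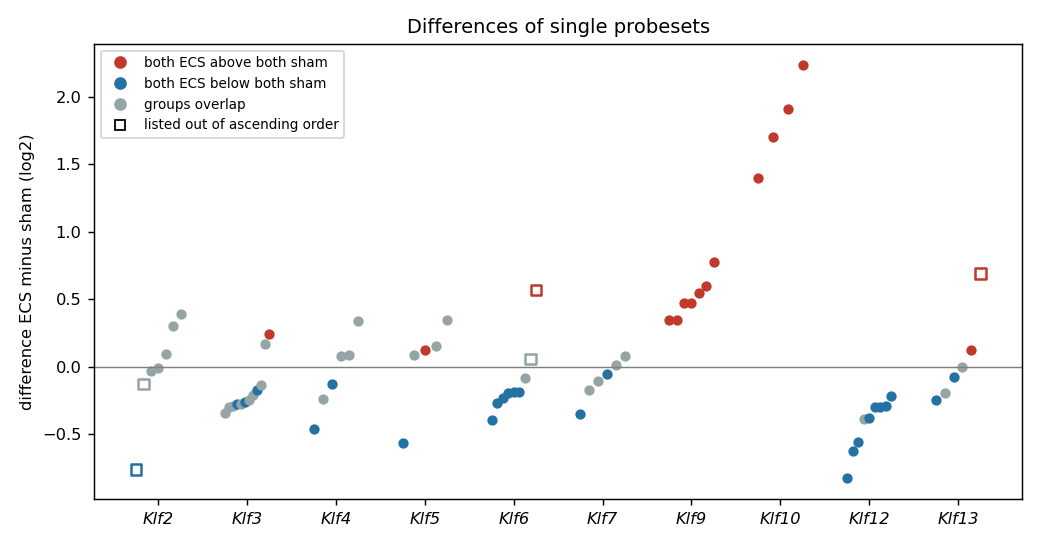
Difference ECS minus sham (log2) of each of the 71 probesets, by gene. Colour marks whether both ECS arrays lie above both sham arrays (red), below both (blue) or overlap (grey); open squares mark probesets listed out of ascending order. All Klf9 and Klf10 probesets are red, 8 of 9 Klf12 probesets are blue, and the open squares of Klf2, Klf6 and Klf13 include the most distant value of each gene.

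Of the genes whose products recruit CtBP, Klf12 encodes a repressor first described at the AP-2 alpha promoter. It read 8.80 on ECS A and 8.53 on ECS B, against 9.06 on sham A and 9.14 on sham B. Both ECS arrays were below both sham arrays, and the ECS arrays lay 0.26 apart, as far as ECS A lay from sham A. The means were 8.67 ± 0.19 in ECS and 9.10 ± 0.06 in sham (SD, n = 2 each), with a log2 difference of -0.43 ± 0.12 (SE; limma adjusted p = 0.192). Without ECS B the difference was -0.30, and without ECS A it was -0.56. All 9 Klf12 probesets had a negative difference, from -0.83 to -0.22. On both ECS arrays 8 of them were lower, against 25.6% of the probesets of all genes. A negative difference at every probeset occurred in 5.23% of genes with 9 or more probesets, which include genes with more probesets than Klf12. The largest Klf12 difference was that of probeset 4532483, with 6.66 and 6.30 on the ECS arrays against 7.22 and 7.40 on the sham arrays.

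Klf3, a repressor gene first studied in the erythroid lineage, read 8.80 and 8.40 on the ECS arrays against 8.66 and 8.89 on the sham arrays. The ECS arrays differed by 0.40, more than the difference between the groups (-0.18 ± 0.17 SE; limma adjusted p = 0.643). Without ECS B it was 0.026. Of its 12 probesets 10 had a negative difference and 2 a positive one, but only 3 were lower on both ECS arrays and 1 was higher. Among the probesets of all genes 43.7% had a positive difference, 25.6% were lower on both ECS arrays and 17.6% higher. Klf8, the third measured gene of this subgroup and not among the 10, read 5.39 and 5.04 on the ECS arrays against 5.55 and 5.54 on the sham arrays (-0.33, adjusted p = 0.318). None of the 3 CtBP-binding genes was called; their differences were below 0, as were those of 10422 of all 18010 genes.

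**Figure D4:**
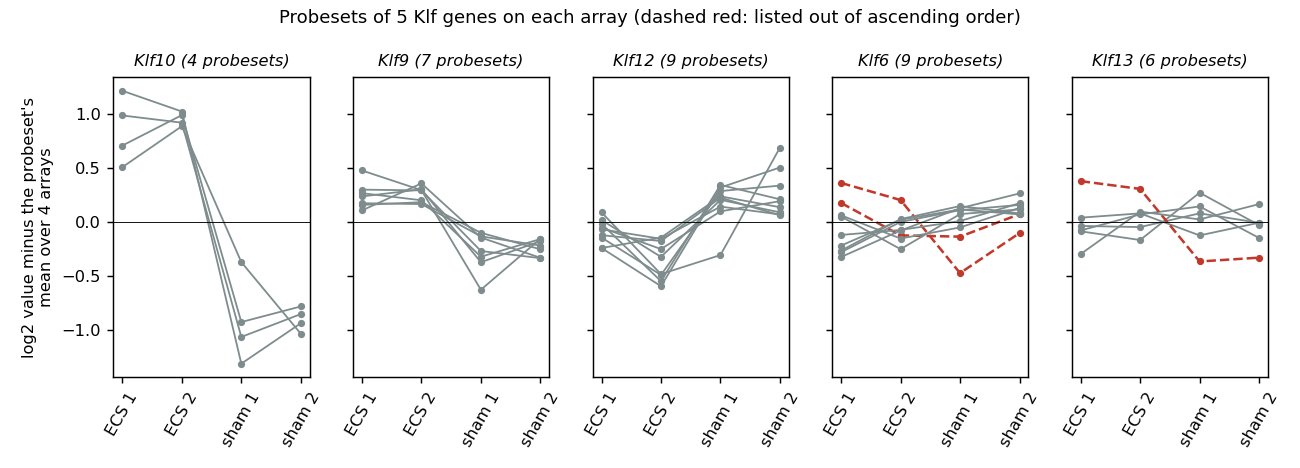
Values of single probesets of Klf10, Klf9, Klf12, Klf6 and Klf13 on each array, minus the probeset's own mean over the 4 arrays (log2); lines join the values of a probeset. The Klf10 and Klf9 lines drop between the ECS and the sham arrays and the Klf12 lines climb, while in Klf6 and Klf13 the probeset with the largest positive difference (0.57 and 0.69) is a dashed red line, one listed out of ascending order.

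The 5 genes of the activating subgroup had differences between -0.10 and 0.03 and none passed. Klf6, which promotes axon growth and is a known injury-response gene, read 7.59 and 7.61 on the ECS arrays against 7.65 and 7.76 on the sham arrays. The groups did not overlap, but the gap between ECS B and sham A was only 0.04 (difference -0.10 ± 0.09 SE; limma adjusted p = 0.622). Its 9 probesets split. The 7 in ascending order all had a negative difference, and 6 of them were lower on both ECS arrays. Among the probesets of all genes 43.7% had a positive difference and 25.6% were lower on both ECS arrays. Of the other 2 Klf6 probesets, 4376127 read 6.96 and 6.80 on the ECS arrays, against 6.12 and 6.49 on the sham arrays (0.57). Probeset 4333885 had 0.06.

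The split within Klf6 did not pass the test of single probesets. Probeset 4376127 stood 0.76 above the others in its difference, with a limma diffSplice adjusted p of 0.0871. By that rule 0.321% of all probesets were called. At an unadjusted p under 0.05, where 5.35% of all probesets were called, 4 of the 71 Klf probesets passed, 1 each in Klf2, Klf5, Klf6 and Klf13. Without both probesets the Klf6 difference was -0.22 (adjusted p = 0.287), which is more than 1.5 times the reported value and still not called.

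Klf7, a factor that promotes axon growth, read 8.94 and 8.80 on the ECS arrays against 9.01 and 8.92 on the sham arrays. The groups overlapped by 0.02 (difference -0.10 ± 0.10 SE; limma adjusted p = 0.659). Of its 6 probesets 2 were lower on both ECS arrays and 4 overlapped, against 25.6% lower among the probesets of all genes. Klf5, a regulator of proliferation in epithelia and smooth muscle, read 7.72 and 7.65 on the ECS arrays against 7.63 and 7.68 on the sham arrays, and the groups overlapped (0.03 ± 0.09 SE; adjusted p = 0.909). Its probeset 5006933 alone went the other way, with 7.16 and 6.76 on the ECS arrays against 7.46 and 7.59 on the sham arrays (-0.57; diffSplice adjusted p against the other probesets = 0.594).

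Klf2 and Klf4 are best known from endothelium, where blood flow induces them through ERK5 and MEF2, and Klf4 also restrains axon growth in neurons. Klf2 read 6.37 and 6.61 on the ECS arrays against 6.48 and 6.54 on the sham arrays, which lay between the ECS values (-0.02 ± 0.11 SE; limma adjusted p = 0.947). Its probeset 5420731, listed out of ascending order, was the dimmest of all the Klf probesets described here. It had 3.49 and 3.76 on the ECS arrays against 4.56 and 4.22 on the sham arrays. Without the 2 Klf2 probesets listed out of ascending order the Klf2 difference turned to 0.15 (adjusted p = 0.489). Klf4 read 6.75 and 6.80 on the ECS arrays against 6.65 and 7.01 on the sham arrays. The ECS values again lay between the values of the other group (-0.06 ± 0.14 SE; adjusted p = 0.879), and without sham B the difference was 0.12. Klf4 had 3 probesets with a positive and 3 with a negative difference.

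Over the 10 genes, 2 were higher and 2 lower on both ECS arrays than on both sham arrays, and 6 overlapped. Among all genes 18.7% were higher and 30.7% lower in this way, so these counts are near the background. At an unadjusted p under 0.05, Klf9 and Klf10 were higher and Klf12 was lower, against 6.39% and 10.5% of all genes. Of the probesets of all genes 17.6% were higher and 25.6% lower on both ECS arrays. At least 1.5-fold apart was Klf10 alone, against 1.52% of all genes higher and 1.49% lower.

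**Figure D5:**
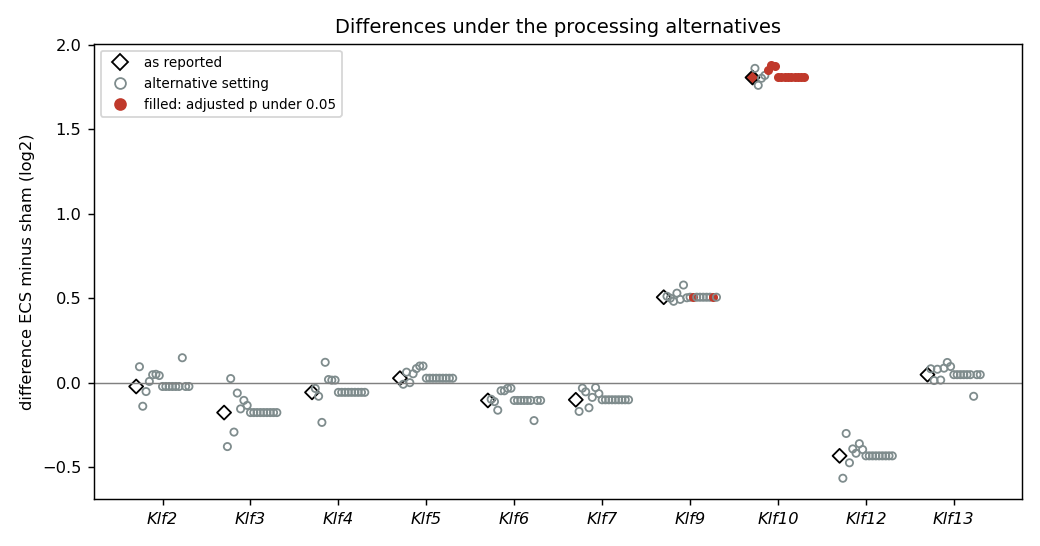
Log2 difference ECS minus sham of each Klf gene as reported (diamonds) and under 16 alternative settings (circles), filled where the adjusted p was under 0.05. Klf10 stays between 1.76 and 1.88 and Klf9 between 0.48 and 0.58 under every setting shown, whereas Klf2, Klf3, Klf4, Klf5 and Klf13 cross 0 under at least 1 setting.

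Array sham B stood apart in its tissue content. All 10 choroid plexus markers were highest on it, and their summed linear level was 678 on ECS A and 574 on ECS B, against 696 on sham A and 2266 on sham B. Klf3, Klf4, Klf6 and Klf12 also had their highest value on sham B, as had 36.4% of all genes. Without sham B their differences were -0.06, 0.12, -0.05 and -0.39. The 5 blood markers, 4 of which share probesets in pairs, were all higher on both ECS arrays, with summed levels of 13836 and 11518 on ECS A and ECS B against 5821 and 9049 on sham A and sham B; shared probesets count in these sums more than once. The part of choroid plexus or blood in the Klf values was not tested. The granule cell markers were present, with Prox1 at 9.60 and 9.53 on the ECS arrays against 9.29 and 9.40 on the sham arrays. Prox1 had the largest positive difference of the 10 markers, whose median difference was -0.40 and mean -0.62. On both ECS arrays 2 of them were higher and 6 lower than on both sham arrays, against 18.7% and 30.7% of all genes. The summed level of the 10 markers was 5421 and 5706 on ECS A and ECS B against 6474 and 6882 on sham A and sham B; Tdo2 (-2.86) and Dsp (-1.37) fell and 8 did not pass.

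Markers of other cells did not pass the test. The median difference was -0.03 for 11 endothelial markers, -0.04 for 10 mural and fibroblast markers and -0.04 for 9 microglia markers. It was 0.04 for 8 astrocyte markers, 0.16 for 9 oligodendrocyte lineage markers, 0.02 for 10 pyramidal cell markers and 0.02 for 9 interneuron and mossy cell markers. Of the endothelial markers 1 was higher and 4 were lower on both ECS arrays; Slco1a4 had -0.55 and Tek -0.49. Their summed level was 2746 and 2660 on ECS A and ECS B against 2748 and 2825 on sham A and sham B. All 9 oligodendrocyte lineage markers overlapped between the groups, and their summed level was highest on ECS A, at 9774 on ECS A and 6964 on ECS B against 7703 on sham A and 7171 on sham B. For the pyramidal, interneuron and mossy, mural and microglia lists the mean difference had the opposite sign to the median. Rows listed at 0 had been left out beforehand, so no measured marker could be at 0. The listed markers Cldn5, Tmem119, Olig1, Hbb-b1 and Hbb-bs were not measured. All 10 genes of a list of activity-regulated genes, chosen with earlier results of these data known, were higher on both ECS arrays. Among all genes 18.7% were higher in this way. Of the 10, Nptx2 (2.06), Homer1 (1.72), Egr3 (1.59) and Arc (1.38) passed, 6 did not, and the median difference was 0.99.

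The rest of the family, the other Klf genes and the related Sp genes, showed no call among 14 measured genes. Their median difference was -0.02, with 3 higher and 4 lower on both ECS arrays. Klf17 (0.17) and Sp5 (0.13) had the highest values and Klf8 (-0.33) and Klf11 (-0.16) the lowest. Klf11, the closest relative of Klf10, read 6.65 and 6.60 on the ECS arrays against 6.69 and 6.87 on the sham arrays, with an adjusted p of 0.497. The values of Klf10 and Klf11 thus lay on opposite sides of 0; the difference between them was not tested.

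None of 11 corepressor and coactivator genes passed (median -0.03). Sin3b, which encodes a Sin3 scaffold, had 0.25 (limma adjusted p = 0.252) and Hdac3 0.05, while Hdac1 had -0.36 (0.234) and Kat2b -0.16. Among 8 genes of the MEK5, ERK5 and MEF2 pathway, which drives Klf2 and Klf4 in endothelium, none passed (median -0.00, mean 0.02). Mapk7, the ERK5 gene, had 0.33 (adjusted p = 0.191) and the kinase gene Map3k3 0.32, while Map2k5, the MEK5 gene, had -0.23 and Mef2c -0.18. Of 6 ubiquitin ligase genes that act on Klf proteins none passed (median -0.04). Fbxw7, a ligase subunit that targets Klf5 for degradation, had 0.39 (adjusted p = 0.136) and Smurf1 0.05, while Wwp1 had -0.24 and Fbxo32 -0.21; 1 of the 14 Fbxw7 probesets is listed for another gene too.

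Of 8 nuclear receptor genes, which include the hormone receptors upstream of Klf9, Rara rose and the other 7 did not pass (median -0.22). Rara, the retinoic acid receptor alpha gene, read 8.08 and 7.92 on the ECS arrays against 6.72 and 6.62 on the sham arrays (1.33 ± 0.10 SE; limma adjusted p = 0.0185). Rxra, its dimer partner, had -0.41 (0.161), Pgr, the progesterone receptor gene, -0.28, and Thra, a thyroid hormone receptor gene, -0.04. Thrb, the other thyroid hormone receptor gene, had -0.28, with both ECS arrays below both sham arrays. Of the 8 genes 5 were lower and 1 higher in this way, against 30.7% and 18.7% of all genes. The genes for the glucocorticoid receptor (-0.10) and the mineralocorticoid receptor (-0.21) did not pass.

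Of 19 measured genes reported as Klf targets, Smad7 rose and 18 did not pass (median 0.01). Smad7, the inhibitory Smad of TGF-beta signalling that Klf10 is known to repress, read 8.16 and 8.15 on the ECS arrays against 7.27 and 7.11 on the sham arrays (0.96 ± 0.10 SE; limma adjusted p = 0.0375). Cdkn1a, the p21 cell cycle inhibitor gene and a classical target of Klf4 and Klf6, read 7.70 and 8.06 on the ECS arrays against 6.93 and 6.67 on the sham arrays. Its difference was 1.09 ± 0.16 (SE; adjusted p = 0.0740). L1cam, an adhesion molecule gene of axons, had -0.23 and Plau, the urokinase gene, -0.22.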

How the data were processed

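Per the submitters' processing notes, the authors used RMA and the oligo package to make log2 values per probeset; neither the versions nor the genome build is stated. The deposited table of log2 values per transcript equals the mean of a transcript's probesets in the deposited probeset table, in all 22485 rows with a probeset (within 1e-06). Its columns A and B thereby equal replicates 1 and 2 of the same group. Its 0 h columns were taken as sham, and they equal the labelled sham samples in all 22485 rows and the ECS samples in 0. The 3621 rows without a probeset are listed at 0 and were left out. Another deposited file gives the number of probesets per transcript and their identities, with no score or other measured value.

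Symbols were updated through RefSeq (GRCm38.p6; 24928 of 25635 identifiers matched), and the brightest row stood for a gene. Differences of ECS from sham were tested in R 4.3.3 through limma 3.58.1 (lmFit, eBayes, two-sided, no block, no filter) and adjusted over 18010 genes. SE is the moderated SE; the fit had 2 residual and 3.23 prior degrees of freedom, and the number of arrays limits the precision. The scripts were tested on simulated data. Same-letter arrays deviated with a correlation of -0.203, so letters were not used as pairs.

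The members, the gene lists and the subgroups were chosen with earlier results of these data known. From each pathway list the text names the 2 highest and 2 lowest genes and any past the threshold; other genes were chosen after their values were seen. Summed levels add linear values over a list. Motifs were searched on both strands. The value of 1 gene of the target list is not reported here.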

Additional observations from a re-analysis of the deposited data

How the results depend on the processing

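Over the 10 Klf genes and 16 alternative settings each, 141 of 160 results kept their sign and their side of the threshold, 4 lost the call, 2 gained it and 13 changed sign, none of the last from a called value. The call of Klf10 was lost with any array left out, where its difference was 1.76 to 1.86 with the spread of the single remaining array taken from the other group; 0 of the 10 genes were then called higher, and 0 to 5 of all genes higher and 0 to 2 lower. Settings that change only the block, the eBayes options, the filter, the choice of row or the source of the values cannot move these differences. The block on letters and that on replicate numbers are the same fit. All 13 sign changes came from a left-out array, a change of scaling or the removal of probesets listed out of ascending order. Klf9 (0.51) was called under trend and robust eBayes and under a filter on the dimmest 25% of genes, so that 2 Klf genes were called higher there and at an adjusted p under 0.10. Against 90 higher and 35 lower genes in all, these settings called 365 and 352, 242 and 216, and 219 and 180, and median centring called 18 lower. With the replicate block, on the column letters or on the labels' replicate numbers, Klf10 was called (adjusted p = 0.0366) and 26 genes were higher and 6 lower; the block changed no other Klf call at 0.05, though Klf9 then had an adjusted p of 0.243, and with the letters crossed 106 genes were higher and 48 lower. At 2-fold in place of 1.5-fold, 68 genes were higher and 19 lower, against 274 and 268. Klf2 had 0.048 after quantile normalization, 0.051 after median centring, 0.044 with cyclic loess and 0.15 without the probesets listed out of ascending order, and -0.14 to 0.10 with an array left out. Klf4 had 0.020, 0.016 and 0.017 under these scalings in the same order and -0.23 to 0.12 with an array left out. Klf3 had -0.38 to 0.026 and Klf5 -0.0081 to 0.064 with an array left out, and Klf13 -0.079 without the probesets out of order. The settings with crossed letters, without those probesets and the test of single probesets were chosen after seeing the data. Beyond fewer arrays, genes or probesets, the cause was not tested. Median centring moved the median of all genes from -0.04 to 0.04. Signal over background was not measured, and dim genes are least certain.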
